A study of Homo sapiens with 6 samples.

Results

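The TAL1, STIL, LMO2 and LYL1 loci were examined in 6 H3K27ac ChIP-seq libraries of the human cell line CCRF-CEM, established from a T-cell leukemia. H3K27ac is acetylation of lysine 27 of histone H3, a mark of active promoters and enhancers. The members were all deposited peaks that overlapped 3 spans of hg19, given by position and not by any measured value: chromosome 1 from 47640 to 47800 kb, which holds TAL1 (47682 to 47698 kb) and STIL (47716 to 47780 kb), chromosome 11 from 33860 to 33930 kb for LMO2, and chromosome 19 from 13200 to 13220 kb for LYL1. The members, in spans chosen with earlier results of these data known, were 207 of the 1440888 deposited peaks of the 6 libraries. Among the 30000 peaks of smallest p of each library, merged over the 5 libraries other than the knockout at 4 h, they formed 8 of 51668 regions.

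SLFN11 knockout cells and parental cells, labelled wild-type, were each sampled after the vehicle DMSO, after 100 nM camptothecin for 2 h and after 100 nM camptothecin for 4 h. Camptothecin traps topoisomerase 1 on DNA, and SLFN11 is known to make cells sensitive to drugs that stall replication. The labels do not say whether the knockout line is 1 clone. With 1 library per group, no spread between replicates and no p-value between groups could be had, and every difference below compares 2 libraries, not 2 conditions. The knockout label and the T cell identity were not checked, since the files carry no gene annotation.

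TAL1 and LYL1 are closely related basic helix-loop-helix transcription factors of blood stem cells and of the red cell and megakaryocyte lineages. LMO2 is a LIM-only adaptor that binds no DNA itself and bridges TAL1 or LYL1 to GATA factors and LDB1. All 3 are normally shut down as thymocytes mature and are switched on in part of T-cell acute leukemias. STIL is needed to build new centrioles, and its own promoter is active in dividing cells. In some of these leukemias an interstitial deletion on chromosome 1 joins the start of STIL to TAL1, so that the STIL promoter drives TAL1, and CCRF-CEM is known as a line with this STIL-TAL1 fusion.

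Promoter sequences were at hand for 3 of the 4 genes, from RefSeq on GRCh38.p14, a build whose positions cannot be set beside the hg19 positions of the peaks. TAL1 and STIL both run on the minus strand, so their right edges are their start sides. The 250 bases before the start are shown for TAL1 and STIL, the starts on either side of the stretch described below, and for LYL1, whose peaks had a low fold for their p. They lie at chr1:47232336-47232585 for TAL1, chr1:47314148-47314397 for STIL and chr19:13102859-13103108 for LYL1, all minus strand, and capitals mark matches to the motifs searched.
TAL1: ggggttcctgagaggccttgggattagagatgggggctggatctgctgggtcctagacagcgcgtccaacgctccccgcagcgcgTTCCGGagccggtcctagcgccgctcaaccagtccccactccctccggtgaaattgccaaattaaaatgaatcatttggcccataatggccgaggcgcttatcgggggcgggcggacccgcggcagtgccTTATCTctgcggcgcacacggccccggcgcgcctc
STIL: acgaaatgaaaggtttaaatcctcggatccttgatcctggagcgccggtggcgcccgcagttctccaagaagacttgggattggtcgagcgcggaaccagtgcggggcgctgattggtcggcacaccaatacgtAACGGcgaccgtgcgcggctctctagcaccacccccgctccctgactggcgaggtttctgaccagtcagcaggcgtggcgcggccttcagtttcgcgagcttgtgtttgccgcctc
LYL1: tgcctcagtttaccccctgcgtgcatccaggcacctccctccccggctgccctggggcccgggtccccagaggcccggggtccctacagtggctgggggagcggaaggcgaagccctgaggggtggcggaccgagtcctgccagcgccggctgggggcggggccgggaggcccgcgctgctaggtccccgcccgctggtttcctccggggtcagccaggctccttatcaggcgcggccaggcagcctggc
Both strands were searched for 5 motifs as fixed strings, with N for any base. Variant forms of the sites of the same factors were not counted. The TAL1 window held AGATAA, a motif of GATA factors found in 9.17% of 35116 such windows, once, 35 bases before the start. It also held the ETS factor core CCGGAA once, as did 14.5% of windows at least once. The STIL window held the MYB core AACGG once, found in 16.5% of windows. The LYL1 window held none of these strings and neither the E-box CAGNTG, found in 42.5%, nor the RUNX core TGTGGT, found in 11%. This does not mean that it lacks sites of these factors, since variant forms were not searched. A second RefSeq start of TAL1, inside the gene, had 3 matches to the RUNX core in the 250 bases before it. LYL1 had a GC content of 75.2%, STIL 61.6% and TAL1 64.8%, against a median of 58% over all windows.

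In the TAL1 gene, 1 peak of about 1.2 kb stood out in every library, at its start side. Its fold over the local background, as the authors' peak caller gave it, was 6.02, 6.0 and 5.0 in knockout cells after DMSO, 2 h and 4 h, and 6.16, 5.79 and 5.94 in parental cells. Its −log10 p was 22.2, 23.2 and 7.57 in knockout cells and 23.2, 17.8 and 17.9 in parental cells, in the same order. Outside the knockout at 4 h the 5 folds lay within a narrow band and the peaks kept nearly the same borders, with starts within 92 bp and ends within 19 bp of each other. In parental DMSO cells the TAL1 peak ran from 47696346 to 47697565 and ranked 3919 by p in its list of 174843. Over the 5 libraries its rank in its own list was between 3919 and 6422. It ended between 416 and 435 bp inside the right edge of TAL1, as that edge is given to the nearest kb.

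The peak at the start side of STIL crossed the right edge of the gene and was wider and weaker than the TAL1 peak. It had a fold of 4.35, 4.27 and 3.25 in knockout cells after DMSO, 2 h and 4 h, and of 3.85, 4.99 and 4.85 in parental cells. The 5 libraries other than the knockout at 4 h are called deeper here for their higher background pileup, since depth itself was not known. The parental DMSO library was the lowest of these 5 at this peak and the treated parental libraries the highest. In parental DMSO cells it ran from 47778638 to 47780884, a width of 2247 bp. At 1959 to 2247 bp it was wider than 79.2% to 83.9% of the peaks within 500 ranks of it in the same list.

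The peak of smallest p in the chromosome 1 span lay at its right end, beyond STIL, from 47798884 to 47800571 in parental DMSO cells. Its −log10 p was 26.4, 29.5 and 12.1 in knockout cells after DMSO, 2 h and 4 h, and 27.9, 28.6 and 31.2 in parental cells. By fold the TAL1 peak was the higher in 4 of the 6 libraries. CMPK1, which encodes a kinase of pyrimidine nucleotides, is the next gene beyond STIL in the RefSeq gene order on GRCh38.p14. Whether the peak belongs to it could not be read from hg19 positions alone. The peak had a fold of 5.33, 5.48 and 5.62 in knockout cells after DMSO, 2 h and 4 h, and of 5.55, 5.94 and 5.68 in parental cells. It was the only one of the 8 at which the knockout 4 h library reached a −log10 q of at least 5 (9.25), though the TAL1 peak came close with 4.95.

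**Figure D1:**
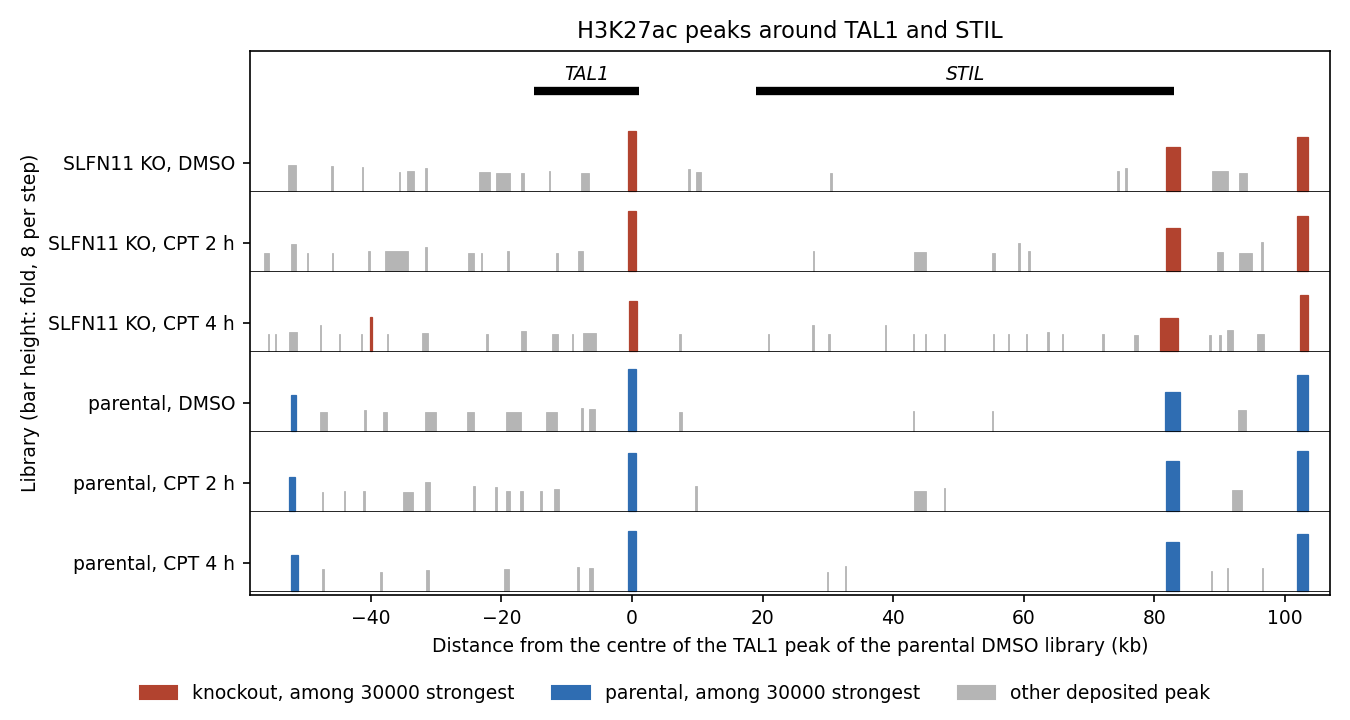
H3K27ac peaks in the chromosome 1 span in the 6 libraries, with distance from the centre of the TAL1 peak in kb on the horizontal axis and fold as bar height. Coloured bars are peaks among the 30000 of smallest p of their library, grey bars the other deposited peaks, and black bars the genes; a stretch of 81.1 kb between the TAL1 peak and the STIL edge peak held grey bars only in the 5 libraries other than knockout 4 h.

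Between the TAL1 peak and the STIL edge peak lay one long stretch with no strong peak. It was 81192, 81190 and 80132 bp long in knockout cells after DMSO, 2 h and 4 h, and 81072, 81228 and 81144 bp in parental cells, counting the 30000 peaks of smallest p of each library. In the union of the 5 deeper libraries it ran from 47697585 to 47778637, 81053 bp in all. It took in the last 416 bp of TAL1, the whole 18 kb between the genes and all of STIL but the last 1363 bp at its start side. Its length was the same with the 15000 strongest peaks and with those whose −log10 q reached 5. Among 37440 tiles of this length over chromosomes 1 to 22 and X, 39.7% held no such peak in any of the 5 libraries. By this count a stretch of this length without a strong peak was common. Unassembled and unmappable sequence, where no peak can be called, was not masked, so the share may be too high.

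The stretch was not empty of weak peaks. Knockout cells had 5 deposited peaks inside it after DMSO, 5 at 2 h and 15 at 4 h, and parental cells had 3, 3 and 2. Deposited peaks of any strength covered 2.51%, 3.77% and 5.67% of the stretch in knockout cells and 1.05%, 2.78% and 0.494% in parental cells. The strong TAL1 and STIL edge peaks of the knockout at 4 h reached into the stretch and are counted in its 5.67%. In each library at least 62.8% of the tiles that likewise lacked a strong peak had less cover than the stretch. These tiles too include sequence where no peak can be called, which may raise that share. All 18 weak peaks of the 5 deeper libraries fell at 14 places, of which 11 were marked in 1 library, 2 in 2 libraries and 1 in 3 libraries. None of these peaks had a fold above 2.77 or a rank better than 37945.

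Cover by deposited peaks of any strength was higher on both sides of the stretch than inside it in all 6 libraries. The stretch was chosen for its lack of strong peaks while the sides kept theirs, so this direction was favoured in advance. The 30000 strongest peaks alone covered 6.32% to 10.35% to the right of STIL and 0% to 2.54% to the left of TAL1. To the left of TAL1, all deposited peaks covered 18.2%, 17.2% and 10.9% in knockout cells after DMSO, 2 h and 4 h. In parental cells they covered 18.2%, 13% and 6.58% there. To the right of STIL they covered 28.8%, 26.6% and 18.5% in knockout cells and 16.2%, 17.6% and 12.7% in parental cells. By construction, the ends of the stretch are the borders of the TAL1 and STIL edge peaks, at the start sides of these genes. Breakpoints of the STIL-TAL1 deletion are also known to lie there, but the place of these ends was not a test for it. A peak list holds no copy number and no junction reads, so a deletion on any copy of chromosome 1 was not tested here.

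To the left of TAL1 lay a weaker peak, from 47644704 to 47645511 in parental DMSO cells. It had a fold of 2.58, 2.66 and 1.86 in knockout cells after DMSO, 2 h and 4 h, and of 3.61, 3.33 and 3.53 in parental cells. It was among the 30000 strongest peaks in all 3 parental libraries and in no knockout library. The place is thus one of the 8 only through the parental libraries, and its lower knockout values are given as a description that this choice favours. Of the 51668 merged regions, 0.55% showed this pattern, and 0.886% when the knockout at 4 h was left out. With both the DMSO and 2 h knockout libraries in and all 3 parental libraries out, the share was 2.21%. Ranked by p among those regions it stood at 36526, 34282 and 36926 in knockout cells and at 19839, 24091 and 19639 in parental cells. Background pileup, used here in place of depth, was 0.699, 0.715 and 0.168 fragments per base in the knockout libraries. In the parental libraries it was 0.603, 0.506 and 0.570. The DMSO and 2 h knockout libraries were thus above all 3 parental ones, and the knockout at 4 h was below them. The part of background pileup in the result was not tested. The knockout 4 h library alone had another strong peak in this flank, 204 bp wide with a fold of 3.37.

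The LMO2 span held 2 peaks of middling strength, called here the inner and the outer one. The inner peak ran from 33902563 to 33903764 in parental DMSO cells. It had a fold of 5.06, 5.78 and 1.95 in knockout cells after DMSO, 2 h and 4 h, and of 4.68, 4.28 and 4.44 in parental cells. Both deeper knockout libraries were above all 3 parental ones, and the knockout at 4 h was far below. The outer peak, from 33913015 to 33915881 in parental DMSO cells, was more even, with 3.34, 3.40 and 2.13 in knockout cells and 3.58, 3.53 and 3.38 in parental cells. At 2637 to 2881 bp the outer peak was wider than 95.4% to 97.9% of the peaks of like rank, whose median width was between 484 and 858 bp.

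No peak of the LMO2 span was among the 30000 strongest of the knockout 4 h library, where the inner and outer peaks ranked 102554 and 92668. That library had the lowest background pileup, 0.168 fragments per base against 0.506 to 0.715 in the others. Of the 18835 fixed regions defined below, 21.6% had no peak among its 30000 strongest, and of the 51668 merged regions 56.2%. An effect of treatment and the low background pileup of that library cannot be told apart here.

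**Figure D2:**
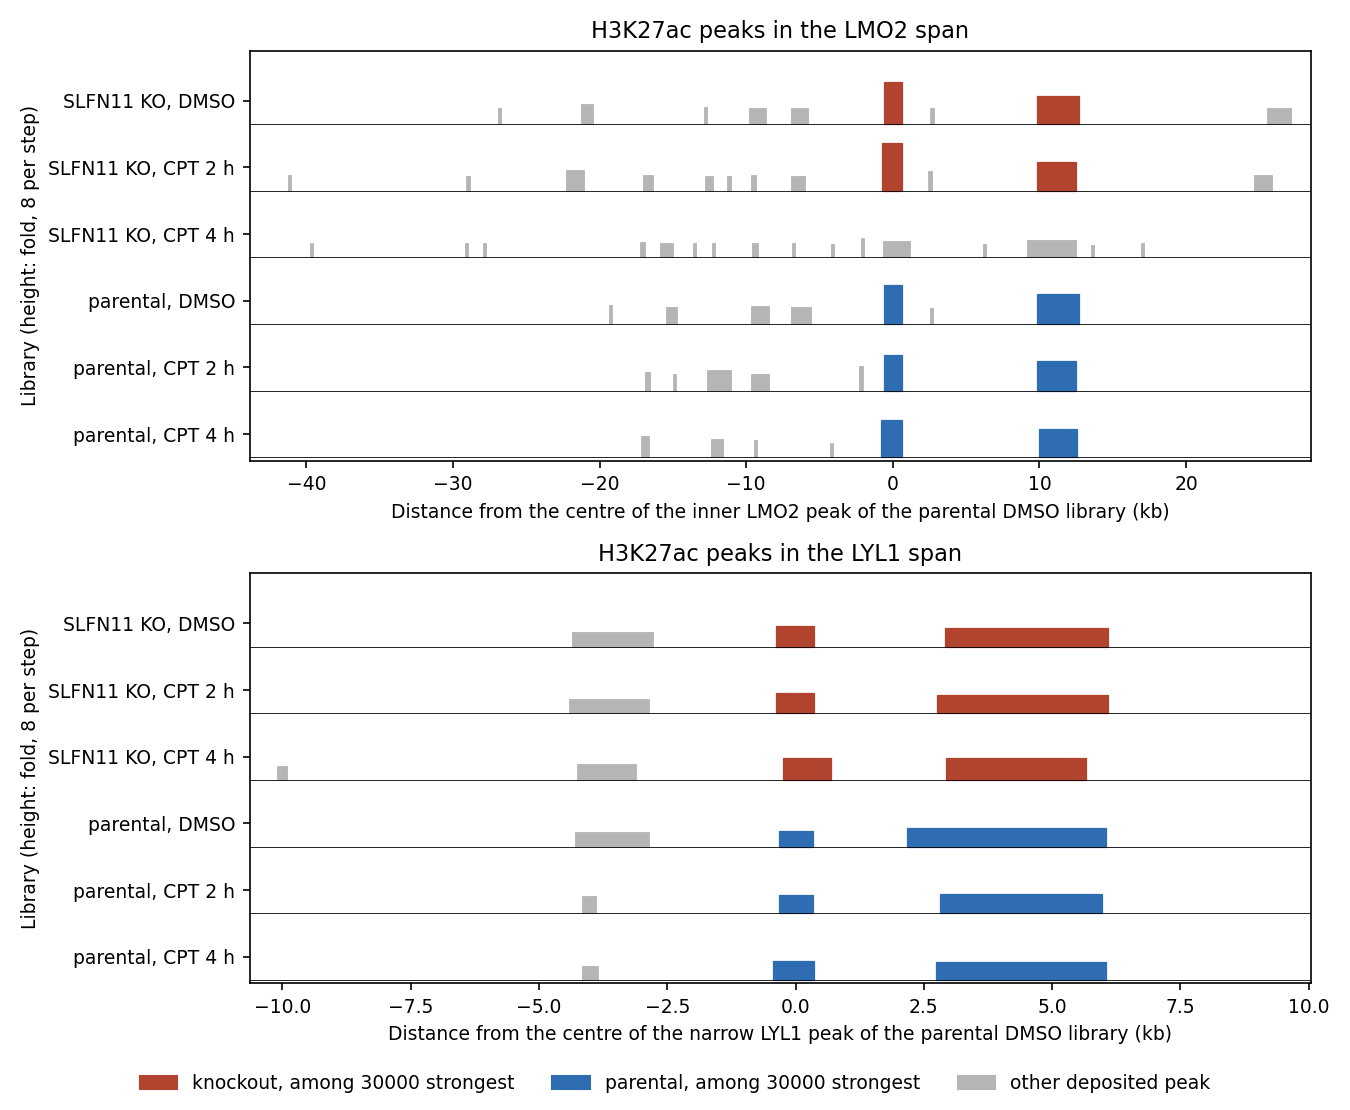
H3K27ac peaks in the LMO2 span (top) and the LYL1 span (bottom), with distance in kb from a peak centre of the parental DMSO library on the horizontal axis and fold as bar height. Coloured bars are among the 30000 strongest peaks of their library and grey bars are not; in the LMO2 span the knockout 4 h row has grey bars only, and in the LYL1 span the low, wide peak reached 3870 bp in the parental DMSO library.

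By the 30000 strongest peaks of each library, the LYL1 span was the most densely marked. It held 2 such peaks, which covered 19.5%, 20.2% and 18.4% of its 20 kb in knockout cells after DMSO, 2 h and 4 h, and 22.7%, 19.1% and 20.5% in parental cells. In the chromosome 1 span the 30000 strongest peaks covered 2.83%, 2.87% and 3.0% in knockout cells and 3.37%, 3.22% and 3.45% in parental cells. In the LMO2 span they covered 5.82%, 5.72% and 0% in knockout cells and 5.81%, 5.51% and 5.82% in parental cells. Over chromosomes 1 to 22 and X the same peaks covered 0.872% to 1.24%. The spans were drawn around genes and differ in length, so their percentages are a description of these windows.

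The narrow LYL1 peak, from 13210108 to 13210768 in parental DMSO cells, had a fold of 2.43, 2.46 and 2.63 in knockout cells after DMSO, 2 h and 4 h, and of 1.90, 2.27 and 2.35 in parental cells. The wide one, from 13212613 to 13216482, had a fold of 2.24, 2.20 and 2.61 in knockout cells and 2.29, 2.32 and 2.22 in parental cells. For the narrow peak −log10 p was 10.5, 11.1 and 4.10 in knockout cells and 6.4, 8.87 and 9.70 in parental cells. The wide peak had 8.57, 8.59 and 4.22 in knockout cells and 12.6, 9.84 and 8.82 in parental cells. NFIX and TRMT1 are the next genes on either side of LYL1 in the RefSeq order on GRCh38.p14. The span was given without the edges of LYL1 itself, so the 2 peaks were not assigned to a gene.

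Low fold at a high −log10 p set the narrow and the wide LYL1 peak apart among the 8 places. In the 5 deeper libraries the narrow peak had a fold above only 0.599% to 5.49% of the peaks within 500 ranks of it, and the wide peak above only 2.0% to 2.5%. The median fold of those neighbours in rank was between 4.24 and 4.86. A weaker LYL1 peak, outside the 30000 strongest, was deposited in all 6 libraries, from 13206134 to 13207577 in parental DMSO cells. In knockout cells after DMSO, 2 h and 4 h its fold was 1.74, 1.72 and 1.97. In parental cells it was 1.77, 2.04 and 1.72. It stood above 0.0999% to 0.4% of its neighbours in rank in the 5 deeper libraries, and above 97.2% in the knockout at 4 h. The TAL1 peak, measured the same way, stood above 56.6% to 64.9% of its neighbours, the inner LMO2 peak above 36.9% to 74.6% and the STIL edge peak above 29.4% to 45.8%. The nearest to LYL1 was the outer LMO2 peak, which stood above 18.7% to 29.5%.

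**Figure D3:**
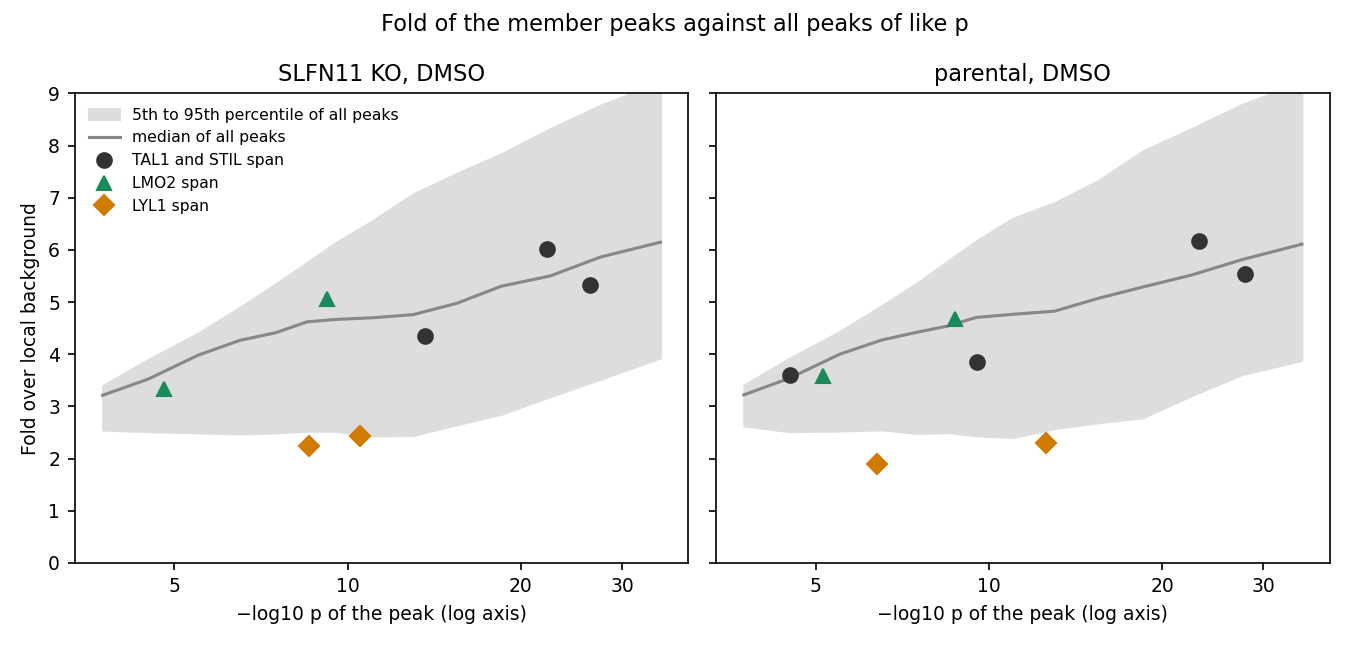
Fold over local background against −log10 p (log axis) for the member peaks in the DMSO libraries of knockout (left) and parental cells (right). The line is the median and the band the 5th to 95th percentile of all deposited peaks of that library by bin of −log10 p; the LYL1 diamonds lie at the lower border of the band or under it, at folds of 1.90 to 2.43.

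**Figure D4:**
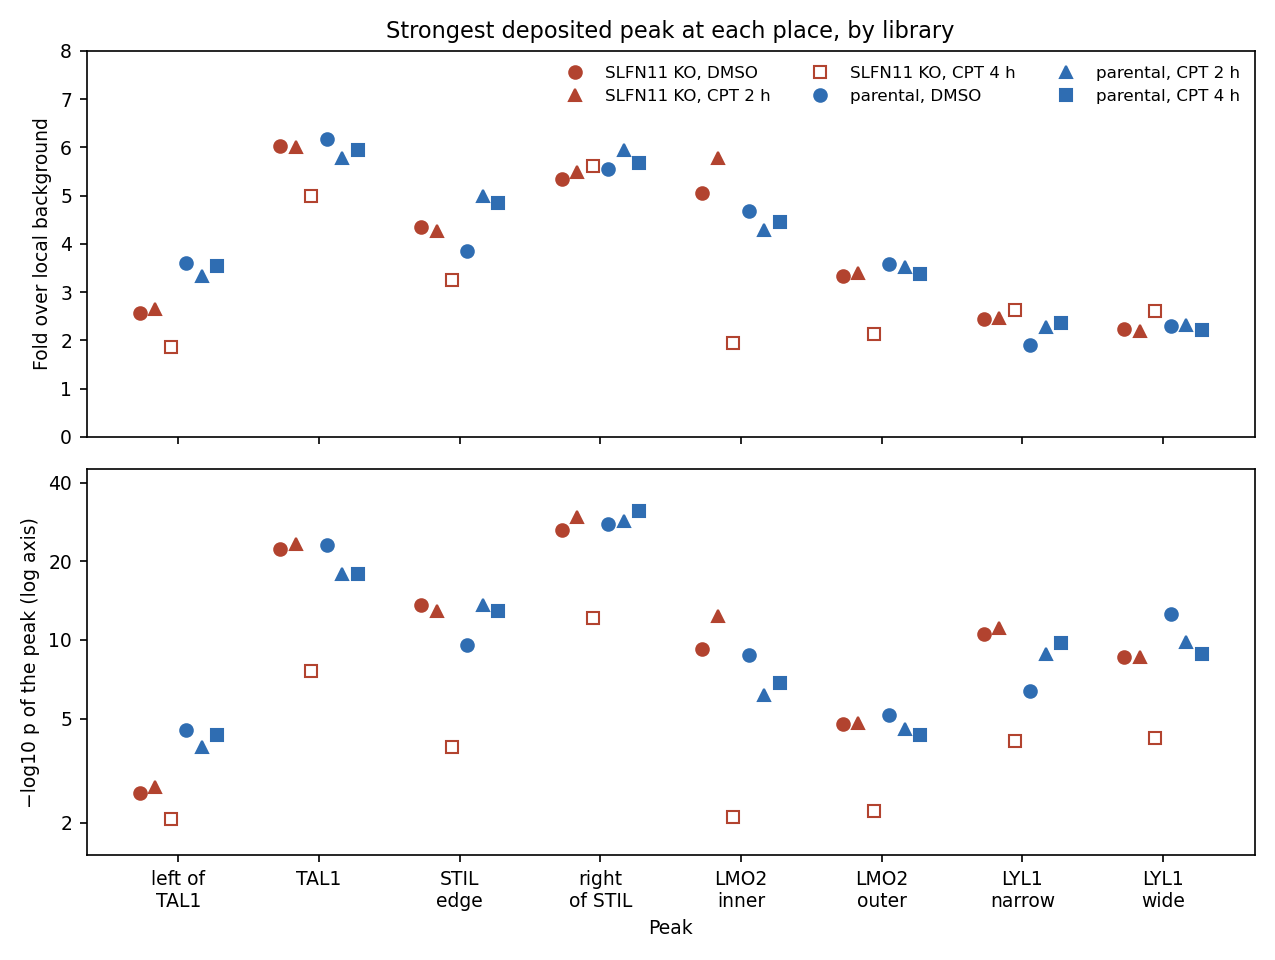
Fold over local background (top) and −log10 p on a log axis (bottom) of the strongest deposited peak at each of the 8 places, with knockout libraries in red and parental libraries in blue. Open squares mark knockout 4 h, the library of lowest background pileup, whose −log10 p was the lowest at each of the 8 places.

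To compare libraries on one scale, the 15000 strongest peaks from each of the 5 deeper libraries were merged into 18835 fixed regions, and each library ranked the same regions by the smallest p in them. The spans held 6 of them: the TAL1 peak, the STIL edge peak, the peak right of STIL, the inner LMO2 peak and both LYL1 peaks. All 6 had one of the 30000 strongest peaks in each of the 5 deeper libraries, as had 88.3% of the 18835. A move of more than 3000 places between 2 libraries was counted.

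The peak right of STIL ranked highest of the 6 in every library and the TAL1 region next. The peak right of STIL stood at 2991, 2817 and 1609 in knockout cells after DMSO, 2 h and 4 h, and 2448, 1903 and 2034 in parental cells. The TAL1 region stood at 4381, 4752 and 5291 in knockout cells and 3834, 5432 and 6234 in parental cells. The STIL edge stood at 8487, 9724 and 12687 in knockout cells and 11206, 7552 and 8557 in parental cells. It was the third in 4 of the 6 libraries, but the wide LYL1 region stood above it in parental DMSO cells and both LYL1 regions did in the knockout at 4 h. The inner LMO2 peak and both LYL1 peaks shared the range from 8908 to 14992 in the 5 deeper libraries, and their order differed between libraries. The spread over these 5 libraries was 1088 places for the peak right of STIL and 2400 for TAL1, under the median of 3014 over all regions. It was above that median for the other 4, at 3654 for the STIL edge, 4292 for the inner LMO2 peak, 4428 for the narrow and 4499 for the wide LYL1 region. The median over the 6 members was 3973.

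**Figure D5:**
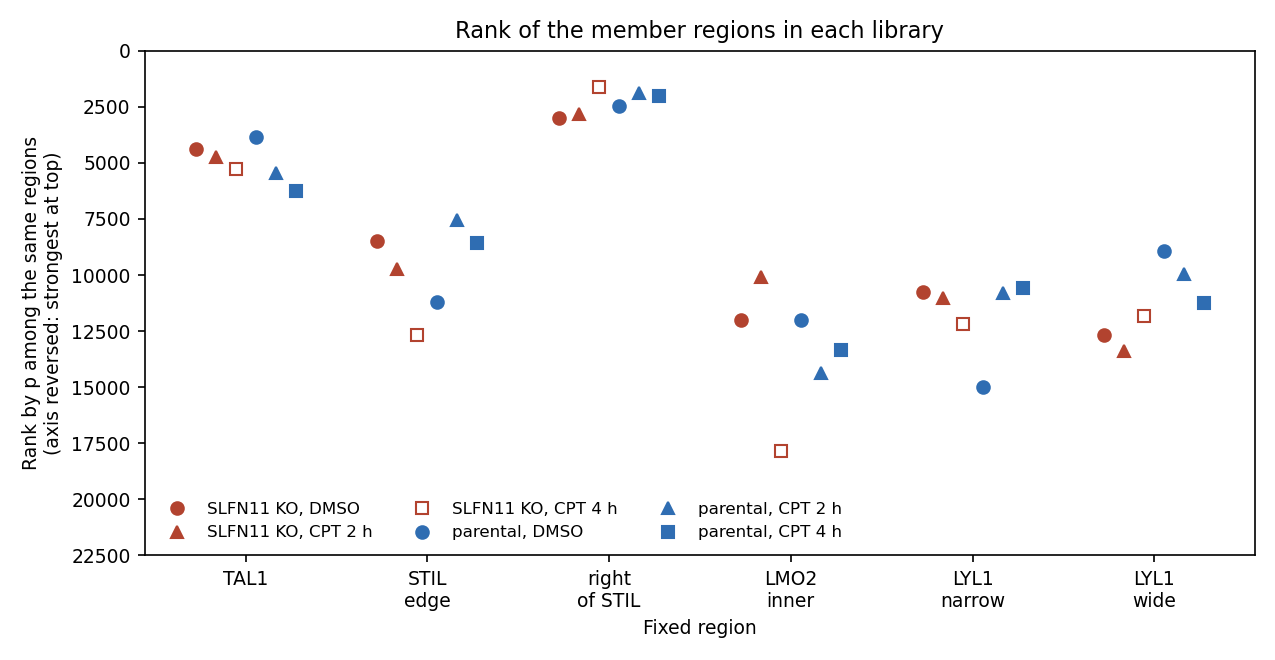
Rank by p of the 6 member regions among the same 18835 regions in each library (axis reversed, strongest at the top), knockout in red and parental in blue. TAL1 lies between 3834 and 6234 and the peak right of STIL between 1609 and 2991, while the STIL edge and narrow LYL1 regions have their lowest rank among the 5 deeper libraries in parental DMSO cells, at 11206 and 14992.

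After camptothecin in parental cells, 2 of the 6 regions moved past 3000 places at 2 h, where 16.9% of all regions did. The STIL edge stood at 7552 at 2 h against 11206 after DMSO, and the narrow LYL1 region at 10780 against 14992. At 4 h only the narrow LYL1 region did, at 10564 against 14992, with 14.6% over all regions. The change at TAL1 was -1598 places at 2 h and -2400 at 4 h, a lower rank at both times and short of the threshold. Both times were set against the same DMSO library.

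After camptothecin in knockout cells, 0 of the 6 moved past 3000 places at 2 h, where 9.19% of all regions did. At 4 h there were 2 such regions, the STIL edge at 12687 against 8487 after DMSO and the inner LMO2 peak at 17830 against 11994, with 31.3% over all regions. The change at TAL1 was -371 places at 2 h and -910 at 4 h. With 6 member regions, counts of 0 to 2 were not read against these percentages as a result about the loci.

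Knockout and parental cells differed in 2 of the 6 regions after DMSO, where 15% of all regions did. The narrow LYL1 region stood at 10744 in knockout cells against 14992 in parental cells, and the wide one at 12682 against 8908. At 2 h there were again 2, with 20% over all regions: the inner LMO2 peak, at 10096 in knockout cells against 14388 in parental cells, and the wide LYL1 region, at 13407 against 9966. At 4 h the STIL edge stood at 12687 in knockout cells against 8557 in parental cells and the inner LMO2 peak at 17830 against 13366, with 34.3% over all regions. Every call of the narrow LYL1 region was made against the parental DMSO library, in which its peak had the lowest fold. The wide LYL1 peak was also at its widest there, 3870 bp against 3158 to 3324 bp in the other 4 deeper libraries.

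The regions of most similar profile to the member region of highest rank, the peak right of STIL, were sought by the sum of absolute rank differences over the 5 deeper libraries. The 3 closest lay on chromosome 19 from 50353747 to 50355328, with a sum of 670 places, on chromosome 1 from 45097091 to 45098354, with 686, and on chromosome 10 from 88280601 to 88282213, with 867.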

How the data were processed

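H3K27ac ChIP-seq was measured in 6 libraries of CCRF-CEM cells, 1 per group. Per the submitters' processing notes the build was hg19 and the tools were MACS2 2.1.2, BWA 0.7.17, Picard 2.9.2, SAMtools 1.8, Trimmomatic 0.39 and Trim Galore 0.6.2. Settings and the choice of control: not given in the sources used here. The authors deposited 1 broad peak list per library, so peaks were called per library. Fold, a ratio of pileup over local background, −log10 p and −log10 q are the authors' deposited values, as means over a peak. The deposited score equals 10 times −log10 q to within 1 and served only as a check. Depth is not in the lists, so the background pileup was solved from the commonest combination of fold and p. It stands in for depth, which was not measured.

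Peaks on chromosomes 1 to 22 and X were used, and overlap of 1 bp put a peak in a span. Ranks are by −log10 p. Tiles and percent cover run to the last deposited peak of each chromosome, with no sequence masked. Coordinates are 1-based. Python 3.11.15, pandas 2.3.3, numpy 2.4.6 and scipy 1.17.1 were used. The 4 genes, the spans and the thresholds were chosen with earlier results of these data known. Every merged region of the 30000 strongest peaks in the spans was described whatever its value, but not every weaker deposited peak. Genes of the TAL1 complex and cell type markers were not analysed here, since no hg19 annotation was used.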

Additional observations from a re-analysis of the deposited data

Results flagged for a closer look

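At the STIL edge and at the narrow LYL1 region, both treated libraries ranked higher than DMSO in parental cells and both ranked lower than DMSO in knockout cells. This difference between genotypes was not tested, with 1 library per group. At the STIL edge the change in knockout cells was -1237 places at 2 h and -4200 at 4 h, and in parental cells 3654 and 2649, so that knockout minus parental was -4891 at 2 h and -6849 at 4 h. At the narrow LYL1 region the change was -286 and -1423 places in knockout cells and 4212 and 4428 in parental cells, a difference of -4498 at 2 h and -5851 at 4 h. Opposite moves of this kind, in either direction, were seen in 15.2% of the 18835 regions, and in 7.07% with at least 1 of the 4 moves above 3000 places. Both parental changes rest on the 1 parental DMSO library, which ranked these regions lowest of the 5 deeper libraries, and the 4 h values of the knockout on the library of lowest background pileup.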

How the results depend on the processing

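The 81053 bp stretch between TAL1 and STIL was 80132 bp with all 6 libraries and 17024 bp with all deposited peaks, which include peaks of very low fold. The median cover over the 5 deeper libraries was 5152 bp in the chromosome 1 span, 4069 bp in the LMO2 span and 4049 bp in the LYL1 span. It was 17120, 7744 and 5486 bp, in the same order, with all deposited peaks, 4531, 1223 and 3909 bp with the 15000 strongest, and 4531, 1194 and 3909 bp with a −log10 q of at least 5. With all 6 libraries the first was 4975.5 bp. Counts of member regions past the rank threshold were small and most moved with some choice; that of knockout 2 h against knockout DMSO was 0 under every one of the 6 tried. Shares of all regions follow each count. At 5000 places 1 of 6 was past in knockout 4 h against knockout DMSO (14.4%) and 0 in the other 6 comparisons (1.48% to 15.7%). At 2000 places parental 4 h against DMSO had 4 of 6 (28.1%). Ranked by fold, knockout against parental had 0 of 6 after DMSO (19.5%) and 4 at 4 h (48.2%), and parental 2 h against DMSO had 1 (22.9%). With regions from the 10000 strongest peaks, which kept 4 members, parental 2 h had 1 (4.71%) and the other 6 comparisons 0 (2.83% to 15.4%). With regions from all 6 libraries, knockout 4 h had 4 of 6 against knockout DMSO (58.6%) and 4 against parental 4 h (58.2%). With regions from the 30000 strongest, a choice made after seeing the data, it had 5 of 8 members against knockout DMSO (69.8%) and 6 of 8 against parental 4 h (69.9%). No paired analysis was possible because each group has 1 library. The low background pileup of knockout 4 h limits every value that rests on that library.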
